A study of Mus musculus with 10 samples.

Results

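The 38 genes described here encode antioxidant enzymes, their transcriptional control and the NADPH oxidase. They were chosen by symbol, as genes that make, remove or buffer reactive oxygen species, and each matched 1 Ensembl identifier of GENCODE M21 among the 51789 identifiers of the count table. RNA was sequenced from cardiomyocytes isolated 4 days after myocardial infarction (MI), from 5 non-transgenic littermate controls (NLC-MI) and 5 mice with cardiomyocyte-specific overexpression of the G protein-coupled receptor kinase GRK5 (TgGRK5-MI). Each library came from 1 mouse. Both groups carried an infarct, so the comparison is between genotypes after injury, and no sham-operated library was analysed here. The study used young adult mice of both sexes, and the promoter of the transgene and the age and sex of each sequenced mouse are not given in the sources used here.

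Superoxide, made by NADPH oxidases and by the mitochondrial respiratory chain, is turned into hydrogen peroxide by the superoxide dismutases, and the peroxide is then removed by catalase, glutathione peroxidases and peroxiredoxins. Glutathione and thioredoxin supply the electrons for the peroxidases and are themselves reduced at the expense of NADPH. The transcription factor NRF2, held in check by KEAP1, switches on many of these genes through antioxidant response elements, and reperfused or infarcted myocardium is a classical setting of oxidative stress.

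The libraries held 7968779 to 23381527 counts, and a count of 3 corresponded to 0.121 to 0.393 CPM (counts as a rate of the TMM-adjusted library total). Grk5, the gene overexpressed by the transgene, lay between 46.5 and 73.0 CPM in the NLC-MI libraries and between 552 and 1700 CPM in the TgGRK5-MI libraries, so every library matched its label. All 10 cardiomyocyte markers were found, with a summed level of 59890 to 156300 CPM in NLC-MI, against 63220 to 124600 CPM in TgGRK5-MI. Markers of other cell types were detected as well. The 10 macrophage and monocyte markers summed to 727.7 to 2156 CPM in NLC-MI, against 1152 to 2431 CPM in TgGRK5-MI, and the 8 fibroblast markers summed to 4031 to 24100 and 4198 to 24770 CPM. The 7 endothelial markers summed to 807.5 to 1468 and 727.3 to 1541 CPM, and the 7 neutrophil markers to 9.88 to 25.0 and 12.8 to 30.7 CPM. The 5 red blood cell markers summed to 411.9 CPM in NLC-MI replicate 3 and to between 9.49 and 51.7 CPM in the other libraries. No marker was at 0 in all libraries, and of all markers tested Ryr2 alone, a cardiomyocyte gene, had an unadjusted edgeR p below 0.05 (lower in TgGRK5-MI, 0.00902, adjusted p = 0.968). NLC-MI replicate 3 and TgGRK5-MI replicate 4 had the fewest counts.

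The comparison asks whether GRK5 overexpression shifted the redox programme of cardiomyocytes after MI. None of the 38 genes passed the test. By edgeR's quasi-likelihood test, 0 of 38 had an adjusted p below 0.10, where 0.0788% of all 15232 genes tested did, and 0 had an unadjusted p below 0.05 in either direction, where 3.85% of all genes did (1.77% higher and 2.08% lower in TgGRK5-MI). DESeq2 likewise called 0 of the 38 at either threshold. The groups overlapped for all 38 genes, whereas 1% of all genes had groups that did not overlap. The log2 fold change, TgGRK5-MI over NLC-MI, lay between -0.35 and 0.39, with 27 genes above 0 and 11 below, and 50.2% of all genes tested lay above 0. The median of the 38 was 0.12, beside 0.0013 for all genes tested. These directions are loosely set, since 19 of the 38 genes changed sign under at least 1 of 17 other settings of the analysis.

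The 95% intervals tell how large a change the data still allow. All 38 intervals held 0, and 34 of them lay within -1 to 1 on the log2 scale. The exceptions were Hmox1, Sod3, Gpx7 and Nox4, whose upper bounds ran from 1.03 to 1.18. An interval within -0.5 to 0.5 was reached by 6 genes. Differences between libraries of the same group were larger than the group difference for nearly every gene. In 36 of 38 genes the log2 fold change was smaller in size than the larger of the group standard deviations of log2 CPM. The median standard deviation was 0.42 in NLC-MI and 0.35 in TgGRK5-MI.

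**Figure D1:**
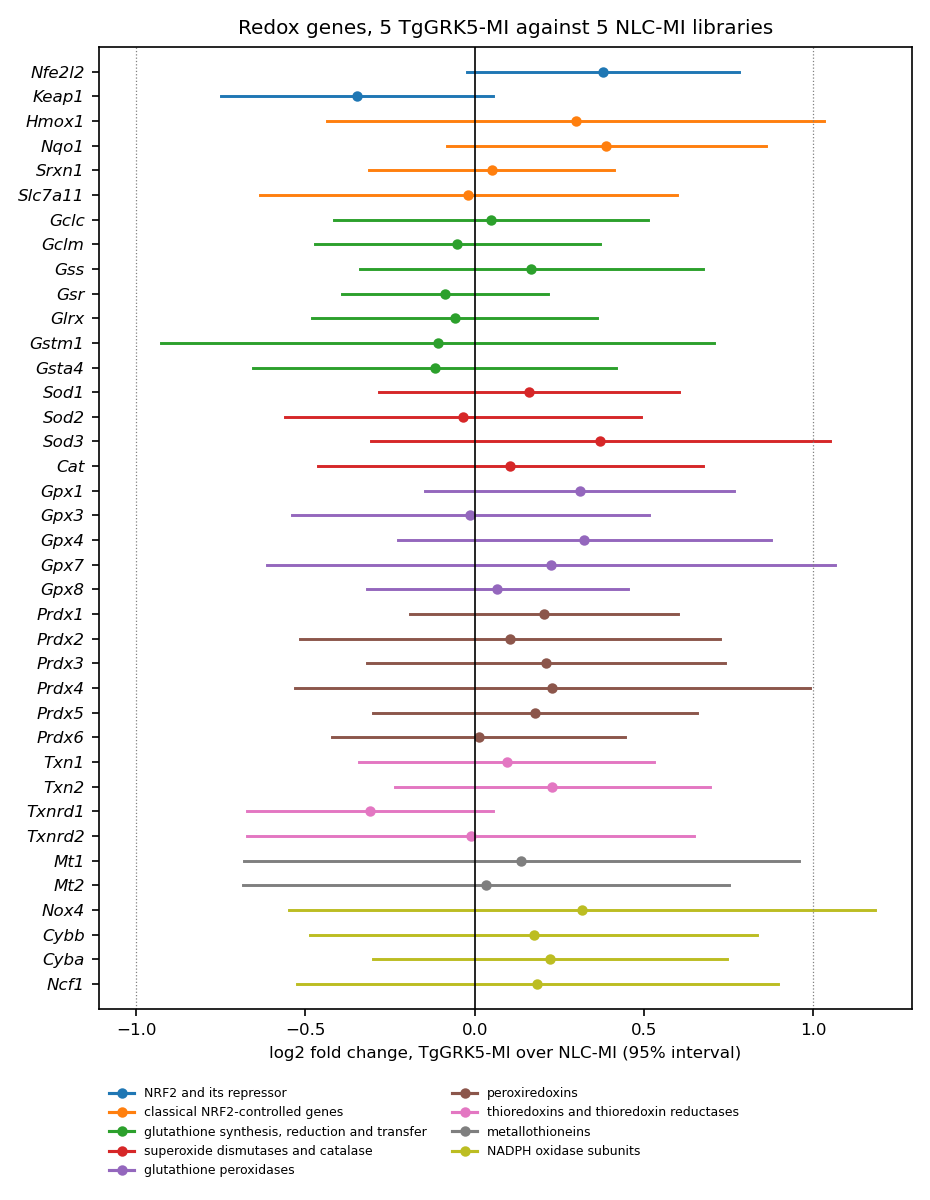
Log2 fold change (x axis, TgGRK5-MI over NLC-MI) of each of the 38 genes (y axis, coloured by role), with points for the edgeR estimate and bars for its 95% interval over 5 and 5 libraries. All 38 bars cross 0 and 34 stay within the dotted lines at -1 and 1.

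Per kilobase of merged exons the genes spanned more than 3 orders of magnitude. Merged exons hold the bases of all annotated transcripts of a gene, from 588 for Mt2 to 13922 for Slc7a11. The order of the genes therefore depends on that annotation as well. The phospholipid hydroperoxidase Gpx4 was the highest by this measure, at 299 ± 90.1 CPM per kb (SD, n = 5) in NLC-MI and 374 ± 104 in TgGRK5-MI. The secreted peroxidase Gpx3, the metallothioneins Mt1 and Mt2 and the mitochondrial peroxiredoxin Prdx3 followed, at 259 ± 67.0, 227 ± 98.8, 200 ± 84.0 and 161 ± 53.8 CPM per kb in NLC-MI. In NLC-MI, adjacent genes among these 5 differed by less than their spread between libraries. In TgGRK5-MI, Gpx4 stood above Gpx3 (257 ± 79.4 CPM per kb) by more than either SD. At the other end, the hydrogen peroxide-producing oxidase Nox4 stood at 0.512 ± 0.236 CPM per kb and the cystine transporter Slc7a11 at 0.106 ± 0.0252 in NLC-MI. The Gpx4 value is uncertain where reads could fall on a near copy: the transcript of Gpx4-ps2 is 99.7% identical over 733 bases and held 11142 counts, 10.9% of the 102491 counts on Gpx4. The longest Slc7a11 transcript shares 373 bases at 96.2% identity with the tubulin gene Tuba1b, which makes its 258 counts over all libraries uncertain.

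**Figure D2:**
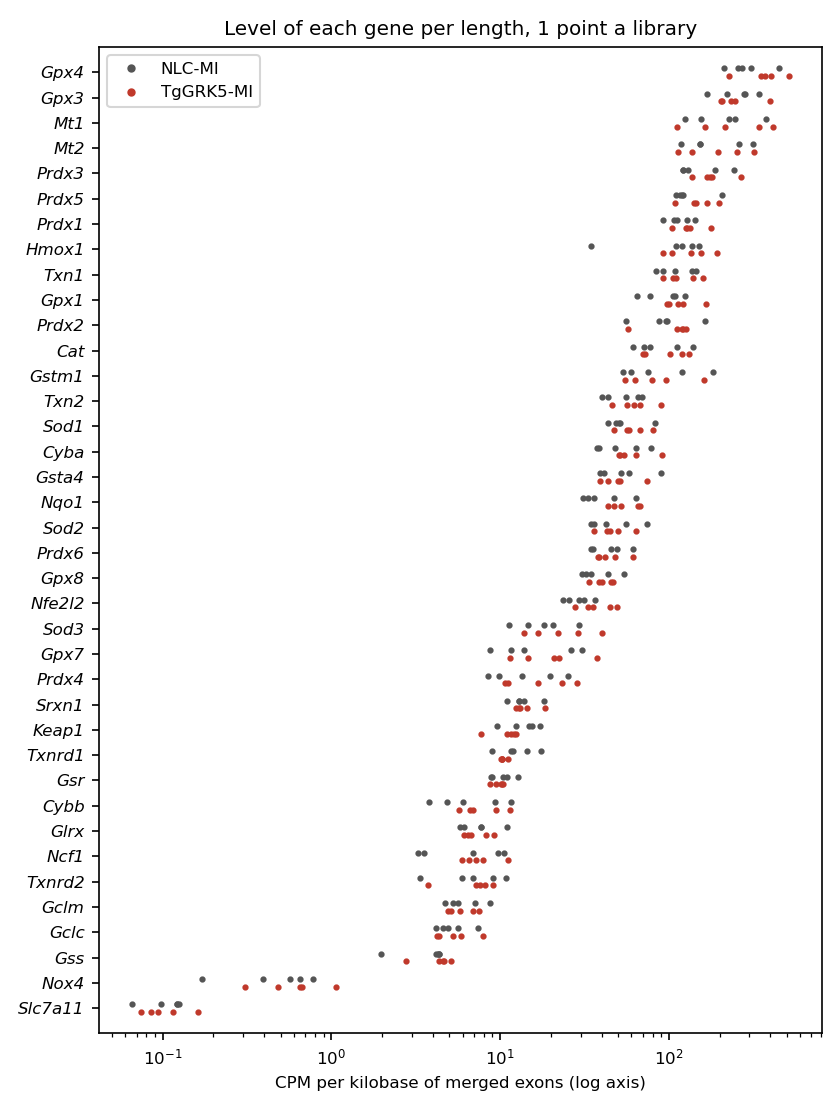
CPM per kilobase of merged exons (x axis, log scale) of each gene (y axis, ordered by mean level), 1 point for each of the 5 NLC-MI and 5 TgGRK5-MI libraries. Gpx4 is at the top and Slc7a11 at the bottom, and the groups overlap in every line.

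Nfe2l2 encodes NRF2 and Keap1 its repressor. Both came closest to the threshold, in opposite directions. Nfe2l2 (chr2:75675513-75704641, minus strand, GRCm38) measured 112, 97.7, 139, 120 and 89.9 CPM in NLC-MI replicates 1 to 5 and 136, 105, 188, 170 and 126 CPM in TgGRK5-MI replicates 1 to 5. The 2 highest libraries were TgGRK5-MI replicates 3 and 4, while the other 3 TgGRK5-MI libraries lay within the range of the controls. The log2 fold change was 0.38 (SE 0.18, 95% interval -0.02 to 0.78), with p = 0.0616 and adjusted p = 1 by edgeR's quasi-likelihood test and p = 0.103 by exact permutation of the libraries. Keap1 (chr9:21229730-21239361, minus strand), given in full after its values were seen, measured 58.2, 72.9, 45.0, 69.2 and 81.3 CPM in NLC-MI, against 56.4, 58.3, 51.3, 36.1 and 54.5 CPM in TgGRK5-MI. All 5 TgGRK5-MI libraries were below the NLC-MI mean of 65.3 CPM, but NLC-MI replicate 3 was lower than 4 of them. Its log2 fold change was -0.35 (SE 0.18, 95% interval -0.75 to 0.05, edgeR p = 0.0831, adjusted p = 1, exact permutation p = 0.119). Exons of Keap1 share 510 bases with the antisense gene Gm16754, and the library kit does not mark strand. Without NLC-MI replicate 3, Nfe2l2 reached an unadjusted edgeR p of 0.0294 and Keap1 0.0200, and no adjusted p of a member went below 0.665 under any setting. Other settings went the other way: over the 17, the unadjusted p by edgeR or DESeq2 ran up to 0.174 for Nfe2l2 and 0.188 for Keap1.

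NRF2 binds antioxidant response elements, and their letters were looked for in the RefSeq promoters of the genes, from 250 bases before to 50 bases after the start (GRCm38.p6). A promoter was in the table for 32 of the 38 genes. Hmox1, Gclc, Gsr, Gsta4, Sod3 and Prdx6 had none there and were not searched. The core TGACNNNGC, on either strand, was found in promoters of 7 of these 32 genes (21.9%), beside 14% of all 27025 genes in that table. The matches are shown with 10 flanking bases, 5′ to 3′ on the strand of the gene and with the core in capitals, because they mark which of the genes carry the letters near their start:
Nfe2l2: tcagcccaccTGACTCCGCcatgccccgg
Srxn1: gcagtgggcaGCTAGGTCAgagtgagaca
Gclm: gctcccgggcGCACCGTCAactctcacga
Prdx1: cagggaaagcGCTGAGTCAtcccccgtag
Sod1: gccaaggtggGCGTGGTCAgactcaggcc
Txnrd1: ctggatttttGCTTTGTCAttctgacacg
Mt2: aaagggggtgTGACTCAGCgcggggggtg
The cores lie at chr2:75704895-75704903 (minus strand gene), chr2:152105552-152105560, chr3:122245423-122245431, chr4:116685466-116685474, chr16:90220706-90220714, chr10:82859114-82859122 and chr8:94172539-94172547 (all plus strand genes). The Txnrd1 match belongs to 1 of its 3 starts, and the Gclm core overlaps a metal response element. Nqo1 and Slc7a11 had no match in this window, and bases farther from the start were not searched. A match is a run of letters and not a measured binding site. The log2 fold changes of the 7 genes ran from -0.31 for Txnrd1 to 0.38 for Nfe2l2.

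Of the classical NRF2-controlled genes, Nqo1, Hmox1 and Srxn1 had values above 0 and Slc7a11 lay near 0. Nqo1, a quinone reductase (chr8:107388225-107403206, minus strand), measured 51.2, 48.3, 55.6, 73.0 and 98.6 CPM in NLC-MI, against 80.5, 73.1, 102, 67.8 and 104 CPM in TgGRK5-MI. All 5 TgGRK5-MI libraries exceeded the NLC-MI mean of 65.4 CPM, yet NLC-MI replicate 5 lay above 3 of them. The log2 fold change of 0.39 was the largest of the 38 (SE 0.22, 95% interval -0.08 to 0.86), with an edgeR p of 0.0964 and an adjusted p of 1. Without NLC-MI replicate 5 the log2 fold change was 0.58 with an unadjusted edgeR p of 0.0101 and an adjusted p of 0.866. Over the 17 other settings the unadjusted p of Nqo1 by edgeR or DESeq2 ran up to 0.237. Hmox1, which degrades haem, ranged from 60.9 to 266 CPM in NLC-MI and from 163 to 340 CPM in TgGRK5-MI, with NLC-MI replicate 5 lowest by far. The log2 fold change of Hmox1 was 0.30 (95% interval -0.44 to 1.03). Srxn1, which repairs overoxidised peroxiredoxins, was at 38.9 ± 7.47 and 40.3 ± 6.94 CPM (mean ± SD of 5 libraries each).

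**Figure D3:**
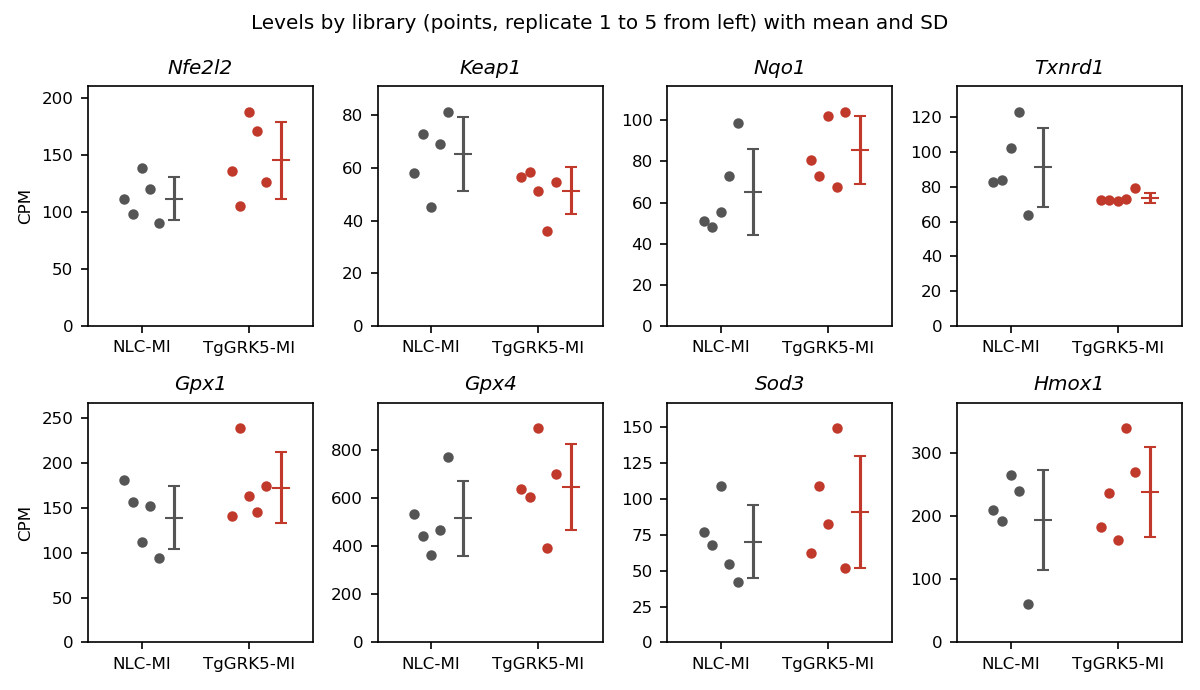
CPM (y axis, from 0) of 8 genes in the 5 NLC-MI (grey) and 5 TgGRK5-MI (red) libraries, points for replicates 1 to 5 from the left and bars for mean and SD. Every panel shows overlap, and the TgGRK5-MI points of Txnrd1 sit between 71.6 and 79.1 CPM while its NLC-MI points spread from 63.7 to 123 CPM.

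The 7 genes of glutathione synthesis, reduction and transfer had a median log2 fold change of -0.06, with 2 above and 5 below 0. Gss, which joins glycine to complete glutathione, was the member with the largest value. It measured 25.5, 24.7, 11.7, 25.7 and 25.7 CPM in NLC-MI, against 27.3, 27.2, 25.8, 16.5 and 30.4 CPM in TgGRK5-MI. The low libraries in each group were the shallowest ones, NLC-MI replicate 3 and TgGRK5-MI replicate 4, and the remaining libraries lay within 24.7 to 30.4 CPM. Its log2 fold change was 0.17 (SE 0.23, 95% interval -0.34 to 0.67). Exons of Gss overlap Acss2 and 2 antisense genes on the other strand. The subunits of glutamate-cysteine ligase behaved otherwise in those libraries: Gclc was highest in the same pair, at 27.7 and 29.7 CPM against 15.6 to 22.0 CPM elsewhere, and Gclm at 54.4 and 47.4 CPM against 29.6 to 44.7 CPM. The glutathione reductase Gsr was the steadiest of the 38, with a ratio of 1.47 between the highest and lowest library. The glutathione transferase Gstm1 was among the most variable, from 78.5 to 268 CPM in NLC-MI and from 80.5 to 238 CPM in TgGRK5-MI. Glrx and Gsta4 had log2 fold changes of -0.06 and -0.12.

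Among superoxide dismutases and catalase, the extracellular enzyme Sod3 had the largest difference. Sod3 measured 77.4, 68.1, 110, 54.5 and 42.5 CPM in NLC-MI, against 62.7, 109, 82.4, 150 and 51.8 CPM in TgGRK5-MI. TgGRK5-MI replicate 4 was highest, and 2 TgGRK5-MI libraries were below the NLC-MI mean. Its log2 fold change of 0.37 had a 95% interval of -0.31 to 1.05. The cytosolic Sod1 was at 220 ± 61.1 CPM in NLC-MI, against 246 ± 49.4 CPM in TgGRK5-MI, the mitochondrial Sod2 at 487 ± 165 and 475 ± 104 CPM, and Cat at 240 ± 84.1 and 259 ± 72.4 CPM (mean ± SD of 5 libraries each).

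Gpx4 had the largest difference of the 5 glutathione peroxidases. Gpx4 measured 532, 441, 364, 467 and 771 CPM in NLC-MI, against 637, 604, 890, 393 and 698 CPM in TgGRK5-MI. The highest library of each group was also one of the 2 with the most cardiomyocyte marker RNA, and TgGRK5-MI replicate 4 lay within the lower controls. The log2 fold change was 0.32 (SE 0.25, 95% interval -0.23 to 0.88). Gpx1, the cytosolic peroxidase, exceeded the NLC-MI mean of 139 CPM in all 5 TgGRK5-MI libraries, which ran from 140 to 238 CPM, beside 93.8 to 181 CPM in NLC-MI. Its log2 fold change was 0.31 (95% interval -0.15 to 0.77). Gpx3, Gpx7 and Gpx8 had log2 fold changes of -0.01, 0.23 and 0.07, and Gpx7, of the endoplasmic reticulum, spanned 11.2 to 48.0 CPM over the 10 libraries.

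All 6 peroxiredoxins had log2 fold changes above 0, from 0.01 for Prdx6 to 0.23 for Prdx4, and none passed the test. Prdx2 and Prdx6 changed sign under other settings. Prdx4, of the endoplasmic reticulum, measured 53.2, 41.8, 17.8, 28.5 and 20.8 CPM in NLC-MI, against 35.5, 59.8, 22.5, 23.4 and 49.0 CPM in TgGRK5-MI. Each group held both low and high libraries, and NLC-MI replicate 3 was the lowest. The 95% interval of Prdx4 was -0.53 to 0.99. The mitochondrial Prdx3 and Prdx5 were at 238 ± 79.5 and 288 ± 87.1 CPM in NLC-MI and 275 ± 73.2 and 326 ± 72.2 CPM in TgGRK5-MI (mean ± SD of 5 libraries each). Exons of Prdx5 share 409 bases with Trmt112 on the other strand, whose 4827 counts came to 8.99% of those on Prdx5, and without strand reads of the shared stretch cannot be told apart. Prdx1 and Prdx2, the main cytosolic forms, had log2 fold changes of 0.20 and 0.10.

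Txnrd1, the cytosolic thioredoxin reductase (chr10:82833951-82897712, plus strand), differed between the groups more in its spread than in its level. It measured 82.7, 84.0, 102, 123 and 63.7 CPM in NLC-MI, against 72.4, 72.2, 71.6, 72.7 and 79.1 CPM in TgGRK5-MI. All 5 TgGRK5-MI libraries were below the NLC-MI mean of 91.2 CPM, with a standard deviation of 3.09 CPM against 22.6 CPM, a difference in spread that was not tested. Its log2 fold change was -0.31 (SE 0.17, 95% interval -0.67 to 0.05, edgeR p = 0.0878, adjusted p = 1, exact permutation p = 0.111). The standard deviation of log2 CPM was the larger in NLC-MI for 29 of the 38 genes. The same share over all genes was not computed, so whether this count is particular to the 38 is not known. The mitochondrial reductase Txnrd2 and the thioredoxins Txn1 and Txn2 had log2 fold changes of -0.01, 0.09 and 0.23.

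The metallothioneins, small cysteine-rich proteins that bind zinc and copper and scavenge radicals, varied widely and together. Mt1 measured 193, 156, 472, 309 and 284 CPM in NLC-MI, against 140, 204, 429, 513 and 268 CPM in TgGRK5-MI. Mt2 measured 89.5, 69.1, 186, 153 and 90.0 CPM in NLC-MI, against 67.0, 80.4, 115, 188 and 149 CPM in TgGRK5-MI. NLC-MI replicate 3 and TgGRK5-MI replicate 4, the libraries with the fewest counts, were highest for both genes. The log2 fold changes were 0.14 (95% interval -0.68 to 0.96) for Mt1 and 0.03 (-0.69 to 0.75) for Mt2. Over the 10 libraries Pearson's r between them was 0.88 (permutation p = 0.00166, adjusted over 5 relations 0.00259) and Spearman's rho 0.93 (p = 0.00039, adjusted 0.000975). Without the 2 libraries farthest from the median, r was 0.79. Exons of Mt2 share 432 of 588 bases with the antisense gene Gm45774.

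Mt1 (chr8:94179082-94180327) and Mt2 (chr8:94172664-94173568) lie side by side on the plus strand. Metal response elements, the sites of the zinc-sensing factor MTF1, were searched as TGCACNC or TGCGCNC on either strand. In the full windows 3 were found for Mt1 and 4 for Mt2. At least 3 were found in 3 of 32 genes (9.38%), beside 2.27% of all genes in the RefSeq table, the third being Gclm. The promoters from 250 bases before to 30 bases after the RefSeq start are shown with the matches in capitals, since the pair moved together over the libraries. They cover chr8:94178839-94179118 for Mt1 and chr8:94172368-94172647 for Mt2 (plus strand, GRCm38.p6):
Mt1: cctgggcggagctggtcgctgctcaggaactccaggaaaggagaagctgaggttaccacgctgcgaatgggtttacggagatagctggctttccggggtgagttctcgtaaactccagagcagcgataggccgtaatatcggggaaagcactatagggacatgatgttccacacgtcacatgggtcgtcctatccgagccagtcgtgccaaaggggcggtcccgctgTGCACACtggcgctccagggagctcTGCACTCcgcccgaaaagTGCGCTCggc
Mt2: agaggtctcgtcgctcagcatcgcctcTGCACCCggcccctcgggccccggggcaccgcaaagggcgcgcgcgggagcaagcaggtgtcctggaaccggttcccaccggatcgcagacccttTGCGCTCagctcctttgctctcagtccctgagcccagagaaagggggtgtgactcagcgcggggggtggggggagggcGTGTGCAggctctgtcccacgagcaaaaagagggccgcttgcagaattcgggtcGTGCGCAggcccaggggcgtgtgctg
The RefSeq start of Mt2 lies upstream of its GENCODE start. The matches are letters only, and no binding was measured.

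The NADPH oxidase was measured through the NOX2 catalytic subunit Cybb, its membrane partner Cyba, the cytosolic organiser Ncf1 and the separate, constitutively active oxidase Nox4. NOX2 is the oxidase of phagocytes, and NOX4 is known from cardiomyocytes, fibroblasts and endothelium. All 4 log2 fold changes were above 0, from 0.18 for Cybb to 0.32 for Nox4, and did not pass the test. They stayed above 0 under the 17 other settings, but only narrowly. The lowest values were 0.0028 for Ncf1, 0.009 for Cybb, 0.0431 for Cyba and 0.0462 for Nox4. Nox4 measured 6.56, 5.50, 4.84, 3.33 and 1.44 CPM in NLC-MI, against 5.55, 8.99, 2.61, 5.71 and 4.08 CPM in TgGRK5-MI. The ratio of 6.24 between its highest and lowest library was the largest of the 38 genes, and its 95% interval was -0.55 to 1.18. Cyba ranged from 39.1 to 81.5 CPM in NLC-MI and from 52.7 to 94.4 CPM in TgGRK5-MI.

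The levels of these subunits moved with the macrophage markers over the libraries. TgGRK5-MI replicate 2 and NLC-MI replicate 1 had the highest macrophage sums, 2431 and 2156 CPM, and were the 2 highest libraries for Cyba, Ncf1 and Cybb. TgGRK5-MI replicate 5 and NLC-MI replicate 2 followed, with sums of 1812 and 1750 CPM, and the third highest library was NLC-MI replicate 2 for Cyba and Ncf1 and TgGRK5-MI replicate 4 for Cybb. Pearson's r over the 10 libraries was 0.98 for Cyba (permutation p = 2e-05, adjusted over 5 relations 1e-04), 0.93 for Ncf1 (p = 7e-05, adjusted 0.000175) and 0.85 for Cybb (p = 0.00207, adjusted 0.00259). Spearman's rho was 0.94 (permutation p = 0.00018, adjusted 9e-04), 0.92 (p = 0.00063, adjusted 0.00105) and 0.83 (p = 0.0043, adjusted 0.00538). Without the 2 libraries farthest from the median of the macrophage sum, r was 0.97, 0.89 and 0.88. Hmox1 gave an r of 0.39 (permutation p = 0.28, adjusted 0.28) and a rho of 0.20 (p = 0.584, adjusted 0.584), and its r was 0.60 without the same 2 libraries, TgGRK5-MI replicate 2 and NLC-MI replicate 3. In bulk RNA, fewer cells of a type and less RNA per cell cannot be told apart. Each group held 5 libraries, too few for a value within a group, and with the group means subtracted r was 0.97 for Cyba, 0.93 for Ncf1 and 0.85 for Cybb.

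The same comparison, extended to all 38 genes and to the cardiomyocyte markers after these values were seen, gave 76 relations. At an adjusted permutation p below 0.10 for Pearson's r, 8 genes were positively and 6 negatively related to the macrophage sum, and 9 positively and 9 negatively to the cardiomyocyte sum. The same shares over all genes were not computed, so these counts do not set the 38 genes apart. The marker sums were themselves related (r = -0.78, rho = -0.82), so the sets are not independent. Prdx4, Gpx7, Gpx8 and Gpx1 also rose with the macrophage sum, with r of 0.92, 0.92, 0.92 and 0.89, and 0.86, 0.90, 0.92 and 0.81 without the 2 farthest libraries. The fibroblast sum was highest in NLC-MI replicates 1 and 2 and TgGRK5-MI replicate 2, at 23570, 24100 and 24770 CPM. These libraries also had high macrophage sums, of 2156, 1750 and 2431 CPM. Relations with the fibroblast sum were not computed, so the 2 cell types are not told apart here. The mitochondrial Sod2 followed the cardiomyocyte sum with r = 0.94 (permutation p = 6e-05, adjusted 0.00177) and rho = 0.89 (p = 0.00111, adjusted 0.0169), and r was 0.82 without the 2 farthest libraries. Gsta4, Gstm1, Prdx6 and Prdx3 gave r of 0.93, 0.90, 0.89 and 0.82, which came to 0.71, 0.70, 0.71 and 0.53 without the 2 farthest, NLC-MI replicate 5 and TgGRK5-MI replicate 3. NLC-MI replicate 5 and TgGRK5-MI replicate 3, with the highest cardiomyocyte sums, were the 2 highest libraries for Sod2, Gstm1, Gsta4, Prdx3 and Prdx6. For Sod1, Prdx5 and Hmox1 the relation with the cardiomyocyte sum rested on those 2 libraries, without which r was -0.01, -0.16 and -0.11. Nox4 rose with the macrophage sum (r = 0.72, permutation p = 0.0168, adjusted 0.0511) and fell with the cardiomyocyte sum (r = -0.89, permutation p = 0.0009, adjusted 0.00622). Without the 2 farthest libraries of each sum, r of Nox4 was 0.82 and -0.59. Cybb, Ncf1 and Cyba also fell with the cardiomyocyte sum, with r of -0.86, -0.79 and -0.77 (permutation p = 0.00115, 0.00727 and 0.00987, adjusted 0.00728, 0.0307 and 0.0371). Without the 2 farthest libraries of that sum, r of Cybb, Ncf1 and Cyba was -0.79, -0.70 and -0.86. The part of the cell type markers in the differences between genotypes was not tested. By exact two-sided permutation of the libraries, the marker sums gave p = 0.278 for macrophages and 0.730 for cardiomyocytes between the groups.

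**Figure D4:**
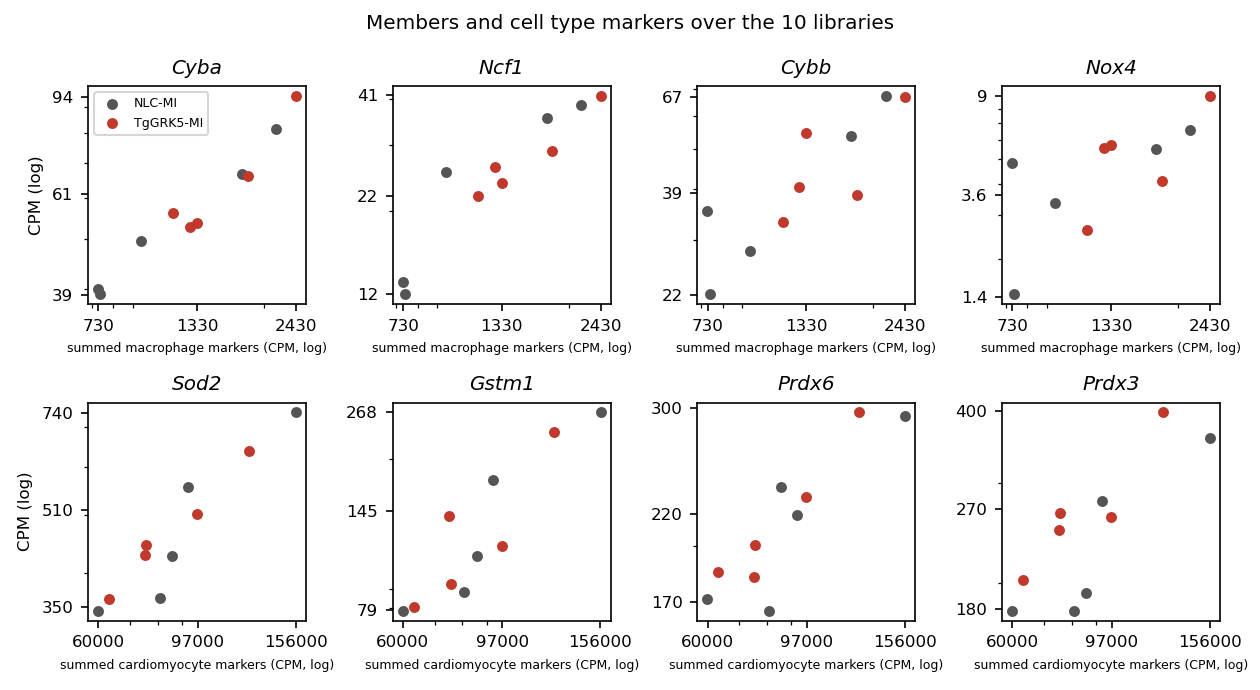
CPM of 8 genes (y axes, log scale) against the summed CPM of 10 macrophage and monocyte markers (top) or 10 cardiomyocyte markers (bottom, x axes, log scale), 1 point for each of the 5 NLC-MI (grey) and 5 TgGRK5-MI (red) libraries. The NOX2 subunits and Nox4 climb with the macrophage markers, and Sod2, Gstm1, Prdx6 and Prdx3 with the cardiomyocyte markers, in points of both groups. The negative relations of Cyba, Ncf1, Cybb and Nox4 with the cardiomyocyte markers are not drawn.

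Single libraries carried much of the variation. NLC-MI replicate 5 was the highest of the 10 libraries for 8 genes and the lowest for 15. TgGRK5-MI replicate 4 was the highest for 7 genes and TgGRK5-MI replicate 2 for 6. Against the NLC-MI mean of log2 CPM, the median over the 38 genes was above 0 in each of the 5 TgGRK5-MI libraries, from 0.08 in replicate 1 to 0.25 in replicate 5. All 5 medians share that NLC-MI mean and are not independent. The median over all genes in each library was not computed.

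**Figure D5:**
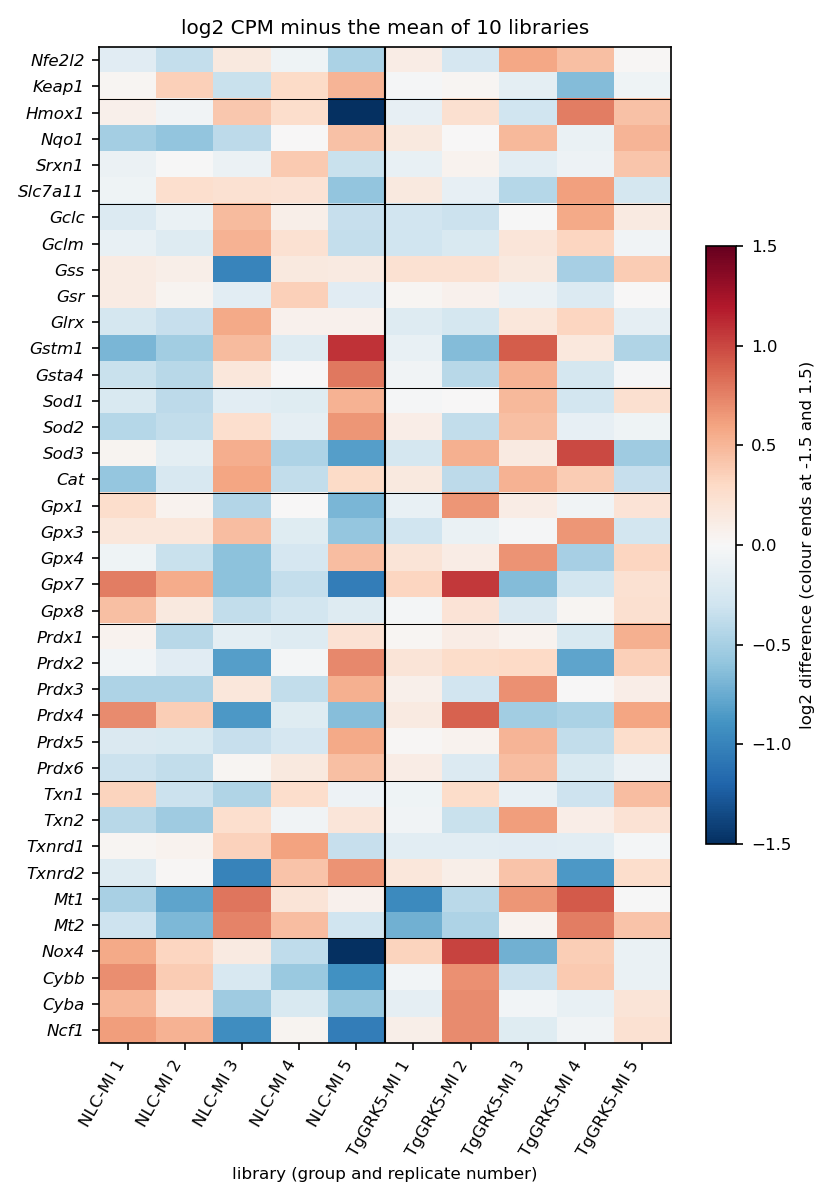
Log2 CPM minus the mean of the 10 libraries (colour, ending at -1.5 and 1.5) for the 38 genes (lines, by role) and 10 libraries (columns, NLC-MI left). Blocks follow single libraries, such as NLC-MI 5 with low Hmox1 and Nox4 and high Gstm1, more than the border between the groups.

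Around the 38 genes, 69 other redox genes were examined, of which 65 were tested. By edgeR's quasi-likelihood test 0 had an adjusted p below 0.10, and 6 had an unadjusted p below 0.05 (9.23%, beside 3.85% of all genes), 5 higher and 1 lower in TgGRK5-MI. DESeq2 gave the same counts at an unadjusted p below 0.05. The list was chosen with earlier results of these data known, so its share is a description and does not set it apart. Without TgGRK5-MI replicate 3 the number higher came to 2, so that at least 3 of these calls rested on that library. The 5 higher ones were the glutathione transferases Gsto1 (log2 fold change 0.66, 95% interval 0.13 to 1.19) and Gstm5 (0.60, 0.18 to 1.02), the epoxide hydrolase Ephx1 (0.51, 0.14 to 0.89), the biliverdin reductase Blvrb (0.46, 0.08 to 0.83) and the constitutive haem oxygenase Hmox2 (0.37, 0.08 to 0.67). Osgin1, an NRF2 target, was lower (-0.55, -0.99 to -0.10). Ephx1 ran from 26.8 to 42.5 CPM in NLC-MI and from 42.6 to 68.4 CPM in TgGRK5-MI, and Hmox2 from 75.4 to 89.6 and from 91.7 to 136 CPM. Groups did not overlap for these 2 genes, with TgGRK5-MI above, as for 0.584% of all genes tested. Nox1, Noxa1, Duox1 and Duox2 were under the filter on low counts. The 12 genes of NADPH supply had 0 at an unadjusted edgeR p below 0.05, with 7 log2 fold changes above 0 and 5 below.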

How the data were processed

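Total RNA of cardiomyocytes from 5 NLC-MI and 5 TgGRK5-MI mice had been made into libraries with a kit that does not mark strand. The authors deposited 1 table of whole-number counts per gene, not normalized. The submitters' processing notes name Bowtie2, RSEM 1.2.31, DESeq2 and mm10, and give neither their settings nor the strand of counting. Whether the deposited counts are rounded estimates is not given in the sources used here.

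Symbols came from GENCODE M21 (GRCm38), where 51596 of the 51789 identifiers were found. The counts were then fitted with edgeR 4.0.16 in R 4.3.3: TMM factors, filterByExpr by group, and the quasi-likelihood F test on all 10 libraries without covariates. Benjamini-Hochberg adjustment ran over all 15232 genes tested, with 0.10 as the threshold, the false discovery rate of the study. Intervals of 95% came from the same fit. All 38 genes passed the filter. Levels are CPM, with a prior count of 2 on the log2 scale. Correlations used 100000 permutations. Near copies were sought with blastn 2.17.0, at 95% identity over at least 200 bases. The fitting script was tested on simulated data, at an adjusted p below 0.10. There edgeR recovered 97% of 4-fold and 54% of 2-fold changes, with 10.7% false calls. DESeq2 recovered 97% and 67%, with 28.7% false calls.

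Values in every library are given for genes with an unadjusted p below 0.05 or groups that do not overlap, and for the gene with the largest log2 fold change of each role. Of the other redox genes, those with an unadjusted p below 0.05 are named. Keap1, Gpx1, Hmox1, Gclc, Gclm, Mt2, Gstm1 and Cyba were given in more detail after their values were seen. The genes and lists were chosen with earlier results of these data known. DESeq2 1.42.0, other size factors, other filters, a replicate block and the omission of each library were tried as alternatives. The 95% intervals include the spread between mice, whereas the floor of 3 counts covers counting error only.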

Additional observations from a re-analysis of the deposited data

Results flagged for a closer look

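In 6 of 76 groups of 5 libraries, 1 library stood apart from the others of its group, by a gap of more than 0.71 of the whole range (Dixon's 95% value). Chance alone marks about 1 in 20 groups. Gss was at 11.65 CPM in NLC-MI replicate 3, with the others at 24.7 to 25.7. Sod1 was at 327.2 CPM in NLC-MI replicate 5, with the others at 173.7 to 204.5. Prdx5 was at 443.5 CPM in the same library, with the others at 235.3 to 257.7. In TgGRK5-MI replicate 4, Gpx3 was at 716.4 CPM, with the others at 369.5 to 446.2, and Prdx2 was at 174.1 CPM, with the others at 342.5 to 383.7. Txnrd1 was at 79.09 CPM in TgGRK5-MI replicate 5, with the others at 71.6 to 72.7.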

How the results depend on the processing

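Under 17 other settings, 0 of the 38 genes passed an adjusted p of 0.10, with 0.665 as the lowest adjusted p. None of the 646 single values changed its side of the threshold or, where called, its sign, but 19 genes, all with a log2 fold change of 0.23 or less in size, changed sign in at least 1 setting. Members higher at an unadjusted p below 0.05 numbered 0, 1 with library size alone (Nqo1), and 0 to 1 when leaving out each library (Nfe2l2 without NLC-MI replicate 3 or TgGRK5-MI replicate 2, Nqo1 without NLC-MI replicate 5). Members lower numbered 0 to 1 when leaving out each library (Keap1 without NLC-MI replicate 3, Txnrd1 without NLC-MI replicate 5) and 1 without the 2 libraries with the fewest counts (Keap1), a setting chosen after seeing the data. With the replicate number as a block, 2 members were higher (Nfe2l2, p = 0.0306; Nqo1, p = 0.0462), but the numbers do not pair the mice: same-numbered libraries correlated at 0.07, 0.66, 0.38, -0.34 and 0.08, and not every library correlated best with its own number. The other redox genes numbered 2 to 7 higher when leaving out each library, with 2 without TgGRK5-MI replicate 3. They numbered 1 to 2 lower, with 2 without NLC-MI replicate 3 and 2 without the 2 libraries with the fewest counts. The median log2 fold change of the 38 lay between 0.05 and 0.15, at 0.07 without NLC-MI replicate 2, 0.05 without TgGRK5-MI replicate 2 and 0.06 without TgGRK5-MI replicate 3. Over all genes, 12 passed an adjusted p of 0.10 by edgeR, 69 by DESeq2, 18 without a filter or with library size alone, 8 with the block or with at least 10 counts in every library, 3 to 10 when leaving out each library and 7 without the 2 libraries with the fewest counts. The causes were not tested.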

Other observations

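Nnt, the mitochondrial transhydrogenase that makes NADPH from NADH, is named here after its values were seen. It measured 43.2, 32.3, 185, 42.9 and 131 CPM in NLC-MI and 87.8, 23.2, 283, 145 and 34.0 CPM in TgGRK5-MI. Each group held both low and high libraries. Its log2 fold change was 0.40 (95% interval -1.07 to 1.87), with an edgeR p of 0.564.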
